A study of Mus musculus with 6 samples.

Results

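The glucocorticoid receptor, encoded by *Nr3c1*, and 9 genes tied to its action were described in the gastrocnemius of mice that lack Nogo. The 10 genes form a list of the receptor, an enzyme that makes its hormone and classic targets, chosen with earlier results of these data known. All 10 were among the 12353 genes of the deposited table. The samples were 3 gastrocnemius muscles of Nogo-/- mice, knock-outs of the Nogo gene *Rtn4*, and 3 of Nogo+/+ (wild-type) mice, with 1 mRNA library per mouse, no muscle injury named for them and no other allele or agent in the labels. The gastrocnemius is a calf muscle of mostly fast-twitch fibers. The strain, age and sex of these mice and the time of day at collection are not given in the sources used here. Mice are called by the numbers of the table's columns, Samples 4, 5 and 6 for Nogo-/- and Samples 1, 2 and 3 for Nogo+/+. Levels are FPKM, the fragments of a gene scaled for transcript length and for all mapped fragments, so that genes can be set side by side per length.

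Glucocorticoids are adrenal steroid hormones that follow the day and rise with fasting and stress. Inside cells the enzyme encoded by *Hsd11b1* turns the inert 11-keto form into active corticosterone. The hormone binds the receptor, which leaves a complex of heat shock proteins and immunophilins, enters the nucleus and binds DNA at glucocorticoid response elements, where it raises some genes and represses others. In skeletal muscle the hormone is known for slowing protein synthesis, speeding protein breakdown and sending out amino acids, glutamine above all. Most of the genes described here also answer to other signals, such as metals, cyclic AMP, amino acid supply, low oxygen and the circadian clock.

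Of the 10 genes, 5 rose in Nogo-/- muscle, none fell and 5 did not pass the test. Those that rose were *Tsc22d3*, *Mt1*, *Mt2*, *Glul* and *Ddit4*. The test was limma on log2(FPKM + 1) after quantile normalization, with Benjamini-Hochberg adjustment over all 12353 genes and a threshold of 0.05. By the same test 1.89% of all genes rose and 2.75% fell, that is 233 and 340 genes, or 302 and 234 without quantile normalization. All 3 Nogo-/- mice lay above all 3 Nogo+/+ mice in 6 of the 10 genes, against 15.9% of all genes, and below them in 1 gene, against 10% of all genes. The median log2 fold change of the 10 genes was 0.74, beside -0.0067 over all genes. Because the list was chosen with earlier results of these data known, these values describe it and are not a test of it. At an unadjusted p under 0.05, 9 of the 10 genes and 2529 of all genes passed. The receptor gene itself was not among those that rose, and *Zbtb16* lay on the other side of 0.

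**Figure D1:**
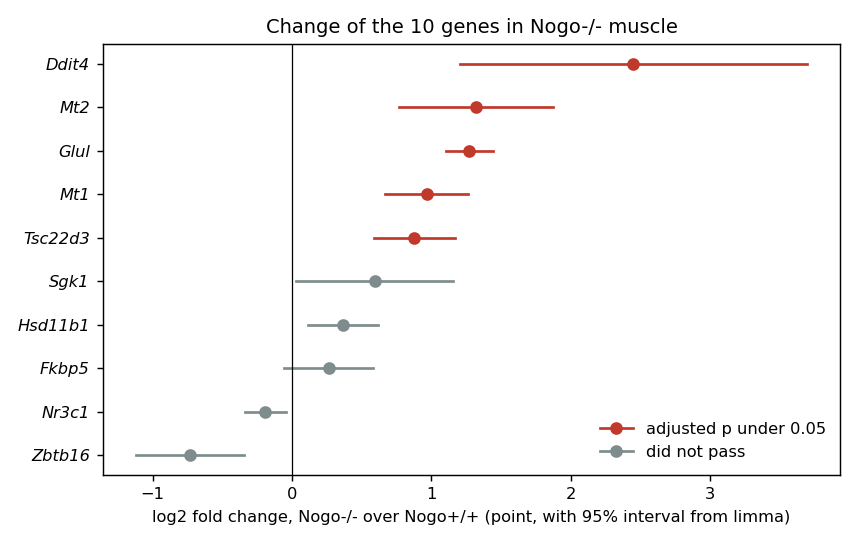
Change of the 10 genes in Nogo-/- over Nogo+/+ muscle, as log2 fold changes from limma (points) with 95% intervals (lines), 3 mice per group. The 5 genes drawn in red passed an adjusted p of 0.05 and all lie to the right of 0, with *Ddit4* farthest at 2.45, and *Zbtb16* is farthest to the left at -0.73.

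The level of the knocked-out gene matched these groups. *Rtn4* was at 0.423, 0.312 and 0.368 FPKM in Nogo-/- Samples 4, 5 and 6, against 414, 429 and 425 FPKM in Nogo+/+ Samples 1, 2 and 3. Muscle fiber markers dominated every library, with a summed level of 33180 to 35200 FPKM in Nogo-/- and 34740 to 35450 FPKM in Nogo+/+ mice. Of 10 such markers 1 fell, *Mb*, with a log2 fold change of -0.15 (adjusted p = 0.00562 from limma) and overlapping groups. It passed in all 6 fits with a library left out and in 3 of 5 other settings. Other cells were also present. Of 10 adipocyte markers none passed, and their sum was 1727 to 2265 FPKM in Nogo-/- and 1683 to 1882 FPKM in Nogo+/+ mice. Most of this sum was *Car3* (log2 fold change -0.08), at 1332, 1131 and 1259 FPKM in Nogo-/- and 1263, 1375 and 1378 FPKM in Nogo+/+ mice. The median log2 fold change of the adipocyte markers was 0.52, and 7 of them, *Car3* included, had an unadjusted p under 0.05 from limma. Of 10 keratinocyte markers none passed, but their sum was 284.5 FPKM in Nogo-/- Sample 6, against 6.43 and 15.1 FPKM in Nogo-/- Samples 4 and 5 and 6.34 to 18.7 FPKM in Nogo+/+ mice. *Krt1*, *Krt5*, *Krt14* and *Krt77* were listed at 0 in Nogo+/+ Sample 1, and *Lor* was listed at 0 in Nogo-/- Sample 4. Endothelial markers fell in 6 of 8 genes, where 2.75% of all genes fell. Their sums were 96.4 to 115.5 FPKM in Nogo-/- and 140.5 to 155.3 FPKM in Nogo+/+ mice. Smooth muscle markers fell in 2 of 6 genes (*Acta2* and *Pdgfrb*). With a library left out, *Cldn5* and *Kdr* passed in all 6 fits, but *Emcn*, *Pecam1* and *Acta2* in 2 each and *Cdh5*, *Tek* and *Pdgfrb* in 1 each. No macrophage, fibroblast, Schwann or red cell marker passed. In a whole muscle, fewer cells of a type and less RNA per cell cannot be told apart.

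**Figure D2:**
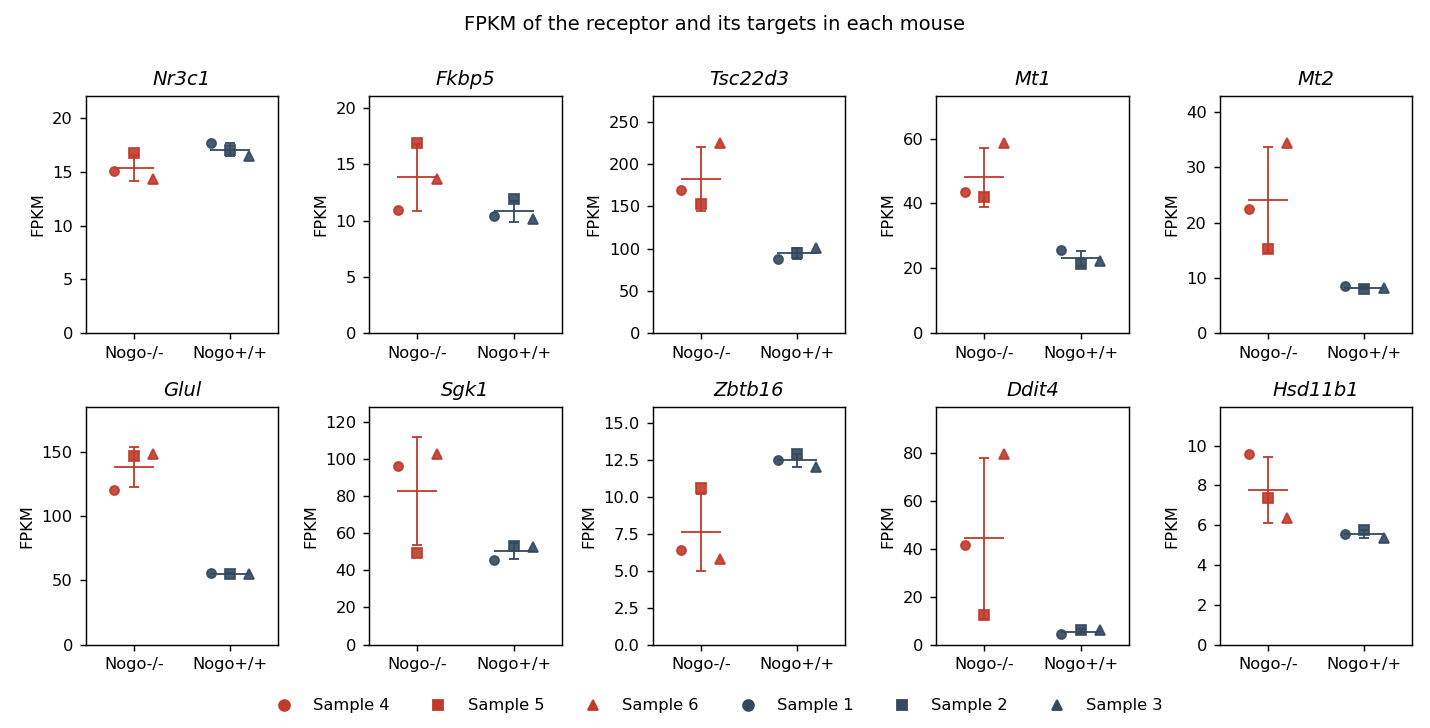
FPKM of each of the 10 genes in each mouse, Nogo-/- on the left and Nogo+/+ on the right of each panel, with the group mean (long bar) and SD (error bar), n = 3 mice per group. *Glul* and *Tsc22d3* separate the groups with every mouse, whereas in *Sgk1* the Nogo-/- mouse Sample 5, at 49.6 FPKM, lies among the Nogo+/+ mice.

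The receptor gene *Nr3c1* was at 15.0, 16.7 and 14.4 FPKM in Nogo-/- Samples 4, 5 and 6, against 17.7, 17.0 and 16.4 FPKM in Nogo+/+ Samples 1, 2 and 3. Samples 4 and 6 were below every Nogo+/+ mouse, and Sample 5 lay among them. The log2 fold change was -0.19 ± 0.06 (SE, 95% interval -0.34 to -0.04, adjusted p = 0.150 from limma), which did not pass, and no fit that left out a library passed either. All 17 genes of a list of receptor partners and nuclear coregulators, which also holds the mineralocorticoid receptor gene *Nr3c2*, were measured. Of these 17 genes, 1 fell and 16 did not pass, with a median log2 fold change of -0.09. The one that fell was *Hspa8*, a constitutive heat shock protein that takes part in loading the receptor onto its chaperones, with a log2 fold change of -0.18 (adjusted p = 0.0431 from limma). It passed in 1 of the 6 fits with a library left out. The chaperone gene *Hsp90aa1* was at 13.3, 11.6 and 10.9 FPKM in Nogo-/- mice, against 13.6, 13.8 and 13.4 FPKM in Nogo+/+ mice, and did not pass (adjusted p = 0.126 from limma).

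On the side of the hormone, *Hsd11b1* was at 9.56, 7.39 and 6.36 FPKM in Nogo-/- Samples 4, 5 and 6, against 5.55, 5.75 and 5.38 FPKM in Nogo+/+ Samples 1, 2 and 3. Every Nogo-/- mouse was higher than every Nogo+/+ mouse, and Sample 4, highest here, was not the highest in any of the genes that rose. The log2 fold change of 0.37 ± 0.11 (SE, 95% interval 0.12 to 0.62) did not pass at an adjusted p of 0.110 from limma, and did not pass in any fit with a library left out. Without Sample 4 the log2 fold change was 0.24. *Hsd11b1* is well expressed in fat, and Sample 4 also had the highest sum of adipocyte markers, at 2265 FPKM, most of it *Car3*. Apart from *Car3*, each of these markers was highest in Sample 4 and lowest in Sample 6 among the Nogo-/- mice, as *Hsd11b1* was. The part of fat cells in the *Hsd11b1* values was not tested. Of 4 other genes of hormone handling in the table, none passed. The one with the smallest p was *H6pd*, which supplies the NADPH that the *Hsd11b1* enzyme needs, at 20.3, 21.1 and 18.7 FPKM in Nogo-/- and 16.4, 16.3 and 17.5 FPKM in Nogo+/+ mice (log2 fold change 0.20, adjusted p = 0.116 from limma).

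*Fkbp5* encodes an immunophilin that sits in the receptor complex and lowers its affinity for hormone, and its induction by the receptor closes a feedback loop. It was at 10.9, 16.9 and 13.7 FPKM in Nogo-/- Samples 4, 5 and 6, against 10.4, 11.9 and 10.2 FPKM in Nogo+/+ Samples 1, 2 and 3. Sample 4 lay within the Nogo+/+ range, Samples 5 and 6 above it, and Sample 5 was the highest, unlike in any of the genes that rose. The log2 fold change was 0.26 ± 0.14 (SE, 95% interval -0.06 to 0.58, adjusted p = 0.337 from limma) and did not pass. It was 0.13 without Sample 5 (adjusted p = 0.617 from limma) and 0.42 without Sample 4 (0.0862).

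*Tsc22d3* encodes GILZ, a leucine zipper protein that carries part of the anti-inflammatory action of glucocorticoids. It was at 169, 153 and 225 FPKM in Nogo-/- Samples 4, 5 and 6, against 87.7, 95.5 and 101 FPKM in Nogo+/+ Samples 1, 2 and 3. Each Nogo-/- mouse was well above the highest Nogo+/+ mouse. The gene rose by a log2 fold change of 0.88 ± 0.13 (SE, adjusted p = 0.00801 from limma) and passed in all 6 fits with a library left out, with adjusted p-values of 0.00228 to 0.0439. The 3 other genes of the TSC22 domain family did not pass. Of these *Tsc22d1* was nearest to passing, with a log2 fold change of 0.15 (adjusted p = 0.153 from limma).

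The metallothioneins are small cysteine-rich proteins that bind zinc and copper, and their genes answer both to glucocorticoids and to metals. *Mt1* was at 43.5, 42.1 and 58.6 FPKM in Nogo-/- Samples 4, 5 and 6, against 25.7, 21.2 and 22.4 FPKM in Nogo+/+ Samples 1, 2 and 3. It rose by a log2 fold change of 0.96 ± 0.13 (SE, adjusted p = 0.00549 from limma), with no overlap of the groups, and passed in all 6 fits with a library left out. Its neighbor *Mt2* was at 22.5, 15.3 and 34.4 FPKM in Nogo-/- mice, against 8.50, 7.96 and 8.26 FPKM in Nogo+/+ mice. *Mt2* rose by a log2 fold change of 1.32 ± 0.24 (SE, adjusted p = 0.0217 from limma), and the Nogo-/- mice were spread over a 2.25-fold range where the Nogo+/+ mice spanned 1.07-fold. The call on *Mt2* held without Sample 5 (adjusted p = 0.00381 from limma) or Sample 6 (0.0103) and was lost without Sample 1 (0.0697), Sample 2 (0.0983), Sample 3 (0.0890) or Sample 4 (0.0642), and without the mean-variance trend (0.0534). The transcripts of *Mt1* and *Mt2* share at most 20 bases in a row. Both rose in the same mice, highest in Sample 6 and lowest in Sample 5, though *Mt1* was nearly level in Samples 4 and 5.

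To show the DNA on which metals and the receptor can act, the RefSeq start regions of the genes (GRCm38.p6) were searched on both strands, in a window of 250 bases before to 30 bases after each annotated start. The motifs were the metal response core TGCGCNC or TGCACNC, the receptor half-site AGAACA, the full receptor element (AGAACA and its inverse TGTTCT, 3 bases apart, which holds a pair of half-sites) and the E-box CACGTG, the site of clock factors. Windows of 8 of the 10 genes were searched, with 15 starts, 3 of them in *Tsc22d3* and 6 in *Sgk1*. No window of *Nr3c1* or *Zbtb16* was searched, so the motifs at their starts are not known here. The regions of *Mt1* (chr8:94178839-94179118, plus strand) and *Mt2* (chr8:94172368-94172647, plus strand) are printed because both genes rose and because they hold the most metal response cores among these starts, 3 and 4, shown in capitals.
Mt1: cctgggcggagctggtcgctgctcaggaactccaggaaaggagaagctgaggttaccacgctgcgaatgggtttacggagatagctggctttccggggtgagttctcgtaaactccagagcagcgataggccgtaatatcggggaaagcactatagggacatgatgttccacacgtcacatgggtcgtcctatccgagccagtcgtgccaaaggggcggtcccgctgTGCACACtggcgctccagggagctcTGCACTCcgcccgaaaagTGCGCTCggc
Mt2: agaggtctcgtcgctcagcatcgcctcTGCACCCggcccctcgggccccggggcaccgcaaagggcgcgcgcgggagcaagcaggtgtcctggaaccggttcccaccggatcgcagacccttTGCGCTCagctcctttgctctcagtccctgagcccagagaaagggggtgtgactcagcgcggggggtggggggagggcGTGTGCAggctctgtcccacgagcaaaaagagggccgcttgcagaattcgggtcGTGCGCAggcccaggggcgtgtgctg
Of 32851 RefSeq starts, 24.1% hold at least 1 such core in a window of this length, and 33.3% of the 12128 starts of genes in the deposited table do. So do the windows of *Glul*, *Ddit4*, *Hsd11b1* and 1 start of *Sgk1*. Neither metallothionein window holds a receptor half-site, which 17.8% of all starts and 11.8% of those of genes in the table hold. The E-box, in 6.79% of all starts and 9.53% of those of genes in the table, was found in the windows of *Fkbp5* and of 1 start of *Sgk1*. A match of letters is not a measured binding site. Sites farther from the starts were not searched, so that a window without a half-site does not show that a gene lacks one.

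Of 11 other genes of metal handling, which include many zinc carriers and the metal sensor gene *Mtf1*, 1 rose and none fell. Their median log2 fold change was -0.0047. Not all of them are genes that metals raise, so that this median does not describe a response to metals. The gene that rose was *Slc30a1*, a zinc exporter of the cell membrane that metals induce, at 2.81, 3.02 and 2.74 FPKM in Nogo-/- and 1.88, 1.83 and 1.60 FPKM in Nogo+/+ mice (log2 fold change 0.44, adjusted p = 0.0307 from limma). This call was lost in all 6 fits with a library left out, with adjusted p-values of 0.0582 to 0.117. *Mt3*, another metallothionein gene, was at 4.28, 3.50 and 4.63 FPKM in Nogo-/- mice and 2.43, 2.97 and 2.48 FPKM in Nogo+/+ mice and did not pass (adjusted p = 0.0615 from limma). *Mt4*, a metallothionein of stratified epithelium named here after its values were seen, was at 2.37 FPKM in Nogo-/- Sample 6 and 0.173 FPKM in Sample 5, and was listed at 0 in Sample 4 and in all Nogo+/+ mice. Sample 6 is also the mouse with the keratinocyte markers and the highest *Mt1* and *Mt2*. Without Sample 6 the log2 fold changes were 0.80 for *Mt1* and 1.02 for *Mt2*, and both passed.

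*Glul* encodes glutamine synthetase, which joins ammonia to glutamate and is a long-known glucocorticoid target in muscle. It was at 121, 147 and 148 FPKM in Nogo-/- Samples 4, 5 and 6, against 55.6, 55.0 and 54.9 FPKM in Nogo+/+ Samples 1, 2 and 3. The Nogo+/+ mice were nearly alike and every Nogo-/- mouse was more than double their level, by factors of 2.19, 2.66 and 2.69. The gene rose by a log2 fold change of 1.27 ± 0.07 (SE, adjusted p = 7.98e-05 from limma) and passed in all 6 fits with a library left out. The exons of *Glul* overlap those of *Teddm2* on the opposite strand. The library kit keeps the strand, but whether the authors' counting used it is not given in the sources used here. *Teddm2* itself was at 1.78, 1.90 and 2.08 FPKM in Nogo-/- mice and 1.89, 1.28 and 1.19 FPKM in Nogo+/+ mice. Among 13 other genes of glutamine and glutamate handling, 1 rose and 2 fell, with a median log2 fold change of 0.03. The alanine aminotransferase gene *Gpt2* rose (log2 fold change 0.32, adjusted p = 0.0390 from limma) but passed in 1 of the 6 fits with a library left out. The genes that fell encode membrane carriers that take up neutral amino acids. *Slc38a2* was at 22.2, 23.0 and 22.3 FPKM in Nogo-/- and 35.4, 35.4 and 34.7 FPKM in Nogo+/+ mice (log2 fold change -0.67, adjusted p = 0.000301 from limma). *Slc38a4* was at 27.1, 22.1 and 30.3 FPKM in Nogo-/- and 44.7, 54.6 and 52.3 FPKM in Nogo+/+ mice (log2 fold change -0.96, adjusted p = 0.00426 from limma). Both carriers passed in all 6 fits with a library left out.

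*Sgk1* encodes a kinase that acts downstream of PI3K and PDK1 and is induced within minutes to hours by corticosteroids. It was at 96.2, 49.6 and 103 FPKM in Nogo-/- Samples 4, 5 and 6, against 45.8, 53.1 and 52.8 FPKM in Nogo+/+ Samples 1, 2 and 3. Samples 4 and 6 were near double the Nogo+/+ mean, by factors of 1.90 and 2.03, whereas Sample 5 lay among the Nogo+/+ mice at 0.981 of their mean. The log2 fold change over all mice was 0.59 ± 0.25 (SE, 95% interval 0.03 to 1.16, adjusted p = 0.221 from limma) and did not pass. Without Sample 5 it was 0.94 (adjusted p = 0.00184 from limma), without Sample 4 it was 0.46 (0.431) and without Sample 6 it was 0.39 (0.418).

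*Sgk1* was the one gene of these 8 with a window that holds a full receptor element, and 3 of the 32851 RefSeq starts (0.00913%) hold one. It lies 189 to 175 bases before start 5 of the 6 *Sgk1* starts, counted along the strand, in the window chr10:21993640-21993919 on the plus strand, which is printed for that reason with its receptor half-sites in capitals.
Sgk1: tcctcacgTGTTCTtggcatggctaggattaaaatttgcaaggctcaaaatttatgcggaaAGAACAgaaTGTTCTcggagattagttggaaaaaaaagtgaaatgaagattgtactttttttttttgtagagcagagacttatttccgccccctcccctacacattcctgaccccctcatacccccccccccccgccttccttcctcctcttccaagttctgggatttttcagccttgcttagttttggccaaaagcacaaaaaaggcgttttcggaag
A further half-site lies near the upstream end of this window, and half-sites alone were found before *Sgk1* starts 1 and 4 and before 1 of the 3 starts of *Tsc22d3*. The deposited FPKM are sums over all transcripts of a gene, so that the use of single starts was not measured.

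*Ddit4* encodes REDD1, which restrains the growth kinase mTORC1 through the TSC complex and is induced by glucocorticoids, low oxygen and other stresses. It was at 41.5, 12.4 and 79.5 FPKM in Nogo-/- Samples 4, 5 and 6, against 4.25, 5.94 and 6.07 FPKM in Nogo+/+ Samples 1, 2 and 3. All 3 Nogo-/- mice were above the Nogo+/+ mice, by factors of 7.66, 2.28 and 14.7 over their mean, and they differed among themselves 6.43-fold. This was the largest log2 fold change of the 10 genes, 2.45 ± 0.54 (SE, 95% interval 1.20 to 3.69, adjusted p = 0.0431 from limma). The call depended on which mice were in the fit. Without Sample 5 the log2 fold change was 3.16 (adjusted p = 0.00168 from limma), and without Sample 6 it was 1.85 (0.0596). The adjusted p was 0.134 without Sample 1, 0.139 without Sample 2, 0.131 without Sample 3, 0.124 without Sample 4, and 0.0908 without the mean-variance trend. A list of 15 other genes around mTORC1 holds the kinase gene *Mtor* and its partners *Rptor* and *Rheb* as well as brakes. Of these, 1 rose and none fell, with a median log2 fold change of -0.09, which is not that of the brakes alone. The gene that rose was *Eif4ebp1*, the translation repressor that mTORC1 phosphorylates, at 49.1, 46.2 and 42.4 FPKM in Nogo-/- and 29.5, 30.9 and 34.5 FPKM in Nogo+/+ mice (log2 fold change 0.48, adjusted p = 0.00840 from limma). It lost its call without Sample 2 (adjusted p = 0.0518 from limma).

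Other signals that raise *Ddit4* were described by their own genes. Of 14 measured genes of the ATF4 response to amino acid shortage and endoplasmic reticulum stress, 2 rose and none fell, with a median log2 fold change of 0.02. These were *Eif4ebp1* and *Chac1*, a glutathione-degrading enzyme, at 55.6, 43.2 and 25.8 FPKM in Nogo-/- Samples 4, 5 and 6, against 6.72, 8.68 and 12.1 FPKM in Nogo+/+ mice (log2 fold change 1.99, adjusted p = 0.00549 from limma). Among the Nogo-/- mice *Chac1* was lowest in Sample 6, the mouse with the highest *Ddit4*. Of 9 measured hypoxia targets 1 rose and none fell, with a median log2 fold change of -0.09. The gene that rose was the hexokinase gene *Hk2* (log2 fold change 0.52, adjusted p = 0.00283 from limma). The part of these signals in the *Ddit4* values was not tested.

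*Zbtb16* encodes PLZF, a zinc finger repressor that glucocorticoids induce in human cells. It was at 6.42, 10.6 and 5.79 FPKM in Nogo-/- Samples 4, 5 and 6, against 12.5, 12.9 and 12.0 FPKM in Nogo+/+ Samples 1, 2 and 3. Every Nogo-/- mouse was below every Nogo+/+ mouse, with Samples 4 and 6 near 0.5 of the Nogo+/+ mean (0.515 and 0.465) and Sample 5 at 0.850. The log2 fold change was -0.73 ± 0.17 (SE, 95% interval -1.12 to -0.34) at an adjusted p of 0.0507 from limma, just outside the threshold. It passed without Sample 5 (log2 fold change -0.96, adjusted p = 0.00108 from limma), with a pseudocount of 0.1 (0.0466) and among genes with a mean FPKM of at least 1 (0.0480). It did not pass without any other single library (adjusted p = 0.112 without Sample 6 to 0.180 without Sample 2 from limma). Nor did it pass without quantile normalization (0.0716), without the mean-variance trend (0.0969) or with sample weights (0.0530). It was the one gene of the 10 in which all Nogo-/- mice were lower.

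The Nogo-/- mice were then ordered within each gene, as a description with no test. In *Tsc22d3*, *Mt1*, *Mt2*, *Sgk1* and *Ddit4* the order from low to high was Sample 5, Sample 4 and Sample 6. In *Zbtb16* and *Nr3c1*, the genes with negative log2 fold changes, it was turned round, with Sample 6 lowest and Sample 5 highest. The other 3 genes each had an order of their own. *Fkbp5* ran from Sample 4 over Sample 6 to Sample 5, *Glul* from Sample 4 over Sample 5 to Sample 6, and *Hsd11b1* from Sample 6 over Sample 5 to Sample 4. Sample 5 was thus the mouse nearest the Nogo+/+ mean in 7 of the 10 genes, the exceptions being *Fkbp5* and *Glul* (Sample 4) and *Hsd11b1* (Sample 6). Without quantile normalization the nearest mouse was the same in 10 of 10 genes. Several of these ranks are near ties. *Mt1* was at 43.5 FPKM in Sample 4 and 42.1 FPKM in Sample 5, and *Glul* at 147 FPKM in Sample 5 and 148 FPKM in Sample 6. In Samples 4 and 6, *Sgk1* was at 96.2 and 103 FPKM, *Nr3c1* at 15.0 and 14.4 FPKM and *Zbtb16* at 6.42 and 5.79 FPKM. Which of 2 such close mice is higher was not tested.

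**Figure D3:**
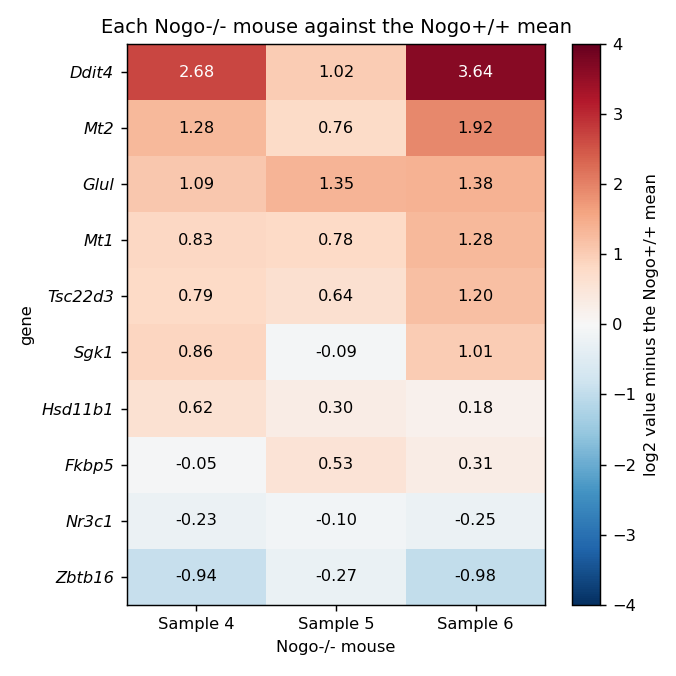
Log2 value of each Nogo-/- mouse minus the Nogo+/+ mean, for each of the 10 genes, in red where higher and in blue where lower. The column of Sample 5 is the palest in most rows, with 1.02 against 2.68 and 3.64 for *Ddit4*, but not for *Glul*, where it is 1.35 against 1.09 and 1.38.

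Over the whole table Sample 5 was also the nearest somewhat more often than the other Nogo-/- mice. It was the nearest in 36.8% of all genes and in 35.4% of the 573 genes that passed, against 30.7% and 31.2% for Sample 4 and 32.5% and 33.3% for Sample 6. Leaving out Sample 5 raised the number of these 10 genes that passed to 7, with *Sgk1* and *Zbtb16* added, and leaving out Sample 1, 2, 3 or 4 left 3, *Tsc22d3*, *Mt1* and *Glul*. Without Sample 6, which carried the keratinocyte markers, 4 passed, and *Ddit4* was the one lost. In the Nogo+/+ mice the highest FPKM was at most 1.43 times the lowest, in *Ddit4*, and 1.01 times in *Glul*.

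**Figure D4:**
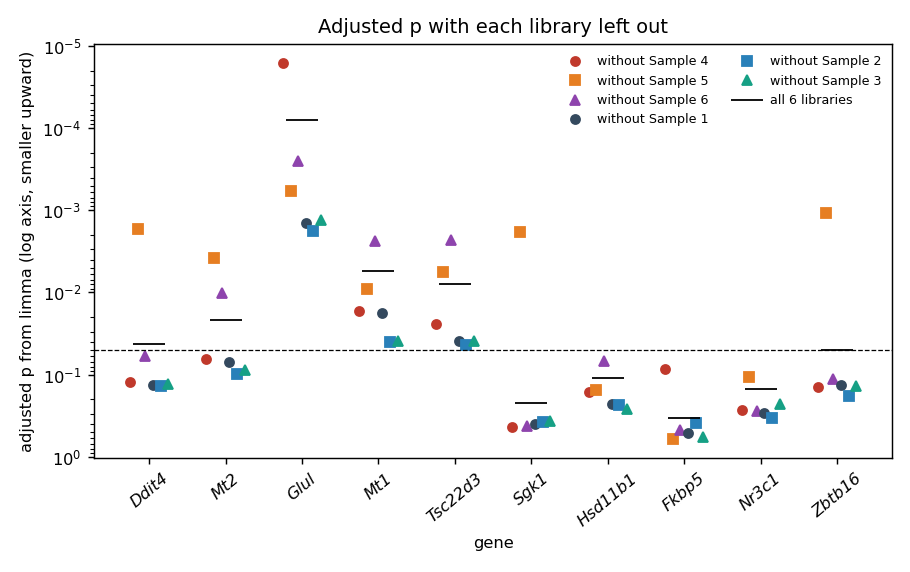
Adjusted p from limma for each of the 10 genes with all 6 libraries (black bars) and with each library left out in turn (colored symbols), on a log axis with smaller values upward and the threshold of 0.05 dashed. *Glul*, *Mt1* and *Tsc22d3* stay above the line in every fit, and the orange squares of the fit without Sample 5 stand apart for *Ddit4*, *Sgk1* and *Zbtb16*.

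Genes with profiles most like those of the 10 genes were sought over all 6 libraries by the root mean square (RMS) difference of log2 values centered on the Nogo+/+ mean. The nearest to *Ddit4* was *Slc25a25*, a mitochondrial ATP-Mg carrier, at 54.7, 14.7 and 84.4 FPKM in Nogo-/- Samples 4, 5 and 6, against 5.75, 6.25 and 8.60 FPKM in Nogo+/+ mice (RMS 0.149), followed by *Arrdc2* (0.391) and *Gadd45g* (0.634). *Sgk1* was matched by *Nfkbia* (0.113), *Errfi1* (0.125) and *Sik1* (0.139). In each of these, Samples 4 and 6 were above all Nogo+/+ mice and Sample 5 was the Nogo-/- mouse nearest to them. *Nfkbia*, the inhibitor of NF-kB, was at 29.3, 18.6 and 35.1 FPKM in Nogo-/- mice, against 16.2, 16.5 and 16.4 FPKM in Nogo+/+ mice. *Cebpb*, a transcription factor gene, was among the 3 nearest to *Tsc22d3* (0.136), *Mt1* (0.152) and *Mt2* (0.255). The others were *Kcna5* and *Ucp3* for *Tsc22d3*, *Id1* and *Trib1* for *Mt1*, and *Cebpd* and *Nr4a1* for *Mt2*.

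*Glul* was followed by other genes. Its nearest were *Cep85l* (0.0944), *Usp2* (0.161) and *Mid1ip1* (0.193), and *Usp2* was at 109, 111 and 124 FPKM in Nogo-/- and 41.0, 40.5 and 36.9 FPKM in Nogo+/+ mice. *Zbtb16* was matched by *Fam84b* (0.0849), *Efna1* (0.142) and *Tead4* (0.142). For the 3 genes with small changes the likeness rests on small differences, and the nearest included *Gpank1*, *Capn10* and *Cdc14a* for *Fkbp5*, *Sfxn1*, *Zbtb49* and *Tmem120b* for *Hsd11b1*, and *Ngrn* and *Pxn* for *Nr3c1*.

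A wider list of 31 measured genes that glucocorticoids are known to induce in muscle or other tissues held genes that moved both ways. Of these, 10 rose, 4 fell and 17 did not pass, where 1.89% of all genes rose and 2.75% fell. The median log2 fold change was 0.28, beside -0.0067 over all genes. All Nogo-/- mice were higher in 15 of the 31 genes and lower in 4, against 15.9% and 10% of all genes. This list too was chosen with earlier results of these data known. The largest rise was that of *Per1*, a period gene of the clock that the receptor also induces directly, at 30.5, 18.3 and 35.6 FPKM in Nogo-/- Samples 4, 5 and 6, against 2.09, 2.02 and 1.92 FPKM in Nogo+/+ mice (log2 fold change 3.18, adjusted p = 0.000162 from limma). *Arrdc2*, an alpha-arrestin gene, was at 66.7, 34.1 and 102 FPKM in Nogo-/- mice, against 5.98, 8.86 and 8.72 FPKM in Nogo+/+ mice (log2 fold change 2.81, adjusted p = 0.00407 from limma). In both, as in *Ddit4*, the order was Sample 5, Sample 4 and Sample 6. The genes of the transcription factors C/EBP beta and delta rose as well, *Cebpb* with a log2 fold change of 1.01 (adjusted p = 0.0141 from limma) and *Cebpd* with 1.404 (0.000510). The call on *Cebpb* held in 2 of the 6 fits with a library left out.

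**Figure D5:**
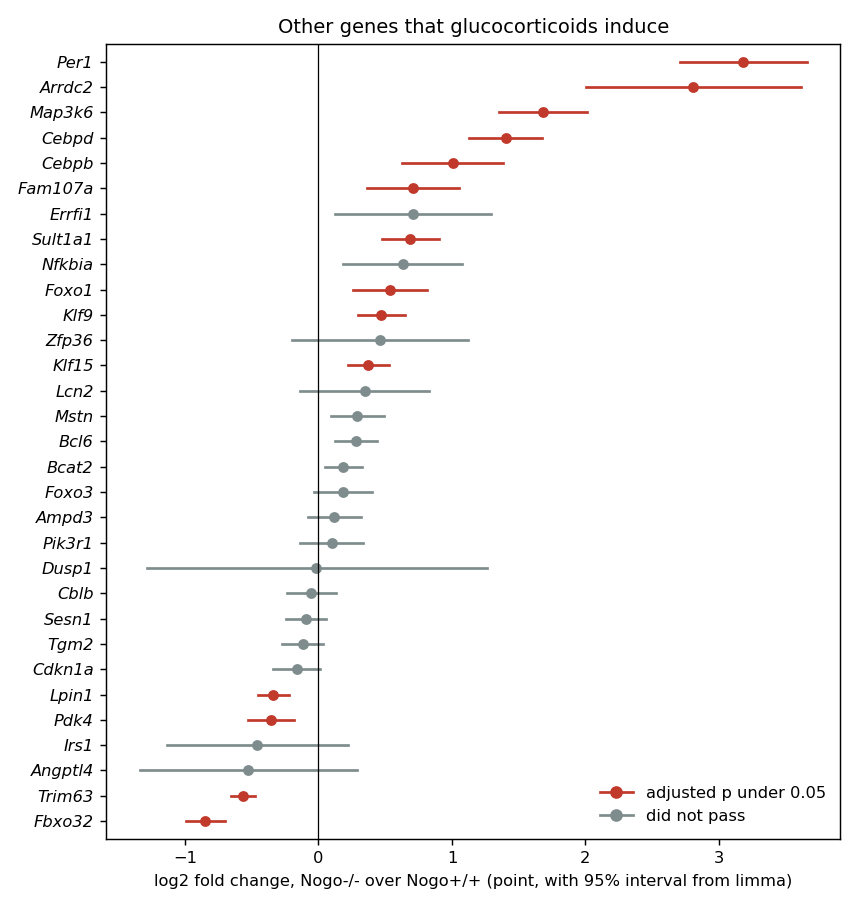
Log2 fold change (points) with 95% interval (lines) from limma of 31 other genes that glucocorticoids are known to induce, Nogo-/- over Nogo+/+, 3 mice per group. The 14 genes in red passed an adjusted p of 0.05, 10 of them to the right of 0 with *Per1* farthest at 3.18, and 4 to the left with *Fbxo32* farthest at -0.85.

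The 4 genes of the list that fell included both muscle ubiquitin ligases by which glucocorticoids are known to drive fiber breakdown. *Fbxo32* (atrogin-1) was at 21.7, 24.0 and 20.9 FPKM in Nogo-/- Samples 4, 5 and 6, against 37.2, 39.9 and 41.0 FPKM in Nogo+/+ mice (log2 fold change -0.85, adjusted p = 0.000301 from limma). *Trim63* (MuRF1) was at 88.1, 86.3 and 87.7 FPKM in Nogo-/- mice, against 123, 128 and 129 FPKM in Nogo+/+ mice (log2 fold change -0.56, adjusted p = 0.000232 from limma). Both passed in all 6 fits with a library left out. The other genes that passed were named after their values were seen. *Lpin1* (log2 fold change -0.34) and *Pdk4* (-0.35), genes of lipid and pyruvate metabolism, fell, and *Map3k6* (1.68), *Fam107a* (0.71), *Sult1a1* (0.69), *Foxo1* (0.53), *Klf9* (0.47) and *Klf15* (0.37) rose. *Foxo1*, which encodes a factor that activates both ligase genes, was at 3.997, 5.54 and 3.68 FPKM in Nogo-/- and 2.69, 2.54 and 2.56 FPKM in Nogo+/+ mice, and passed in none of the 6 fits with a library left out. Neither did *Fam107a*, *Klf15* and *Pdk4* each passed in 2 of them, and *Lpin1* (0.0564 without Sample 2) and *Klf9* (0.0618 without Sample 3) in 5.

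Sample 5 was nearest the Nogo+/+ mean in 13 of these 31 genes, Sample 4 in 11 and Sample 6 in 7. Among the genes of the list that did not pass, a few early-response genes were low in Sample 5 and were named for this after their values were seen. *Dusp1*, a phosphatase of MAP kinases, was at 68.1, 11.7 and 57.2 FPKM in Nogo-/- Samples 4, 5 and 6, against 29.1, 38.1 and 40.3 FPKM in Nogo+/+ mice. *Zfp36*, which speeds the decay of cytokine mRNA, was at 13.7, 6.28 and 17.1 FPKM in Nogo-/- mice, against 7.83, 7.72 and 7.84 FPKM in Nogo+/+ mice. In both, Samples 4 and 6 were above all Nogo+/+ mice and Sample 5 was below all of them. Of 8 measured inflammatory genes that the receptor is known to repress, none passed, with a median log2 fold change of -0.25 and 3 genes at an unadjusted p under 0.05 from limma. The smallest p was that of *Nfkb1*, at 10.2, 10.1 and 8.31 FPKM in Nogo-/- and 12.0, 11.1 and 11.2 FPKM in Nogo+/+ mice (adjusted p = 0.0681 from limma).

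Clock genes moved with the groups as well. Of 19 measured clock genes, 10 rose and 5 fell, where 1.89% of all genes rose and 2.75% fell. Their median log2 fold change was 0.60. *Per1* is counted here and among the induced targets, and this list too was chosen with earlier results of these data known. *Dbp*, a rhythmic transcription factor gene, was at 149, 167 and 145 FPKM in Nogo-/- and 16.4, 15.3 and 17.5 FPKM in Nogo+/+ mice, and *Arntl*, the core activator gene, was at 2.198, 1.33 and 1.41 FPKM in Nogo-/- and 15.6, 15.2 and 15.0 FPKM in Nogo+/+ mice. In *Dbp* Sample 5 was the highest of the Nogo-/- mice, and thus not the nearest to Nogo+/+. Hormone levels in blood follow the day, and a difference in the hour of collection cannot be told apart from the genotype in these 6 libraries. The part of the clock in the values of the 10 genes was not tested.

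By level, the Nogo-/- mice ranked *Tsc22d3* first with a mean of 182 ± 37.9 FPKM (SD, n = 3), then *Glul* (139 ± 15.5), *Sgk1* (82.9 ± 29.0), *Mt1* (48.1 ± 9.13), *Ddit4* (44.5 ± 33.7), *Mt2* (24.1 ± 9.63), *Nr3c1* (15.4 ± 1.21), *Fkbp5* (13.8 ± 2.98), *Hsd11b1* (7.77 ± 1.64) and *Zbtb16* (7.61 ± 2.61). Neighbors in this order were separated without overlap between mice at the steps from *Tsc22d3* to *Glul*, from *Glul* to *Sgk1* and from *Fkbp5* to *Hsd11b1*, and overlapped at the others. The Nogo+/+ mice ranked *Tsc22d3* at 94.6 ± 6.53 FPKM (SD, n = 3), *Glul* at 55.2 ± 0.360, *Sgk1* at 50.5 ± 4.14, *Mt1* at 23.1 ± 2.33, *Nr3c1* at 17.0 ± 0.608, *Zbtb16* at 12.5 ± 0.442, *Fkbp5* at 10.8 ± 0.945, *Mt2* at 8.24 ± 0.270, *Hsd11b1* at 5.56 ± 0.188 and *Ddit4* at 5.42 ± 1.02. There *Hsd11b1* and *Ddit4* overlapped, and no other pair of neighbors did. *Ddit4* thus stood at place 5 in Nogo-/- muscle and last in Nogo+/+ muscle, and *Zbtb16* last in Nogo-/- and at place 6 in Nogo+/+ muscle. Two-sided exact permutation tests of single genes, which cannot go below 0.1 with 3 mice per group, gave 0.1 for 7 of the genes, 0.2 for *Nr3c1* and *Fkbp5* and 0.3 for *Sgk1*.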

How the data were processed

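RNA of 6 gastrocnemius muscles (3 Nogo-/- and 3 Nogo+/+ mice) was sequenced by the authors from stranded mRNA libraries. The submitters' processing notes name CASAVA 1.8.2, cutadapt 1.4.2 for adapters, STAR 2.6.1 for alignment on GRCm38.p6 and Cufflinks 2.2.1 for the levels of genes. The authors deposited FPKM for genes reaching 1 in at least 1 library (lowest maximum 1.0004), with no counts, so no count test was run. A further 6 columns of normalized values were not used. The groups of the columns come from the headings of the study's own table of the same columns.

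Depth was recovered from the FPKM steps of single-transcript genes as about 13740000 to 14436000 fragments per Nogo-/- library and 13474000 to 14412000 per Nogo+/+ library, with 94.6% to 96.0% of low values within 0.1 of a whole number. If every fragment came from its shortest annotated transcript, *Hsd11b1* would rest on 35 to 53 fragments in Nogo-/- and 31 in each Nogo+/+ library.

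FPKM were quantile-normalized over 12353 genes and tested as log2(FPKM + 1) with limma 3.58.1 (mean-variance trend, R 4.3.3), all 6 libraries, no covariates, Benjamini-Hochberg over all genes, threshold 0.05. A fold change on this scale understates that of low genes. Symbols came from GENCODE M21 (12347 of 12353 identifiers matched) and start regions from RefSeq. The code was tested on simulated data. Other settings tried were sample weights, no trend, no quantile normalization, a filter on mean FPKM (1 or more), a pseudocount of 0.1 and fits without each library.

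The members and gene lists were chosen with earlier results of these data known. Named genes are the 10 members, *Rtn4*, up to 4 genes with the smallest p in each list (all that passed where 4 or fewer did) and the 3 genes most like each member, with a mean FPKM of at least 1 and without predicted genes and pseudogenes. Others were named after their values were seen. Results that fall under this rule for 2 genes are not reported here.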

Additional observations from a re-analysis of the deposited data

How the results depend on the processing

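The number of the 10 genes that passed was 5, and 6 with a pseudocount of 0.1 or a mean FPKM of at least 1, 5 without quantile normalization or with sample weights, and 3 without the mean-variance trend. With each library left out in turn it was 3 to 7. Over all genes 573 passed, and 188 to 434 with a library left out. Of the 31 other induced targets 14 passed, and 8 to 15 with a library left out. No gene that passed and is named here changed sign under these alternatives, but without quantile normalization the balance of all called genes turned, with 302 that rose and 234 that fell against 233 and 340, and the median log2 fold change of all genes was 0.03 against -0.0067. The fits with 1 library fewer have less power by construction, and the cause of the other changes was not tested. No paired analysis was possible because no column name gives the replicate of its mouse, so that no replicate block could be fitted. With 3 mice per group and no record of the hour of collection, age or sex in the sources used here, the p-values measure the spread between these mice only.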
